A study of Mus musculus with 18 samples.

Results

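Microglia are the resident macrophages of the brain parenchyma, and border macrophages line the meninges, the choroid plexus and the perivascular spaces. The 32 genes described here are known mainly from these cells, and here they were measured in RNA from sorted cortical interneurons. They were taken as a list of gene symbols. The rule uses no measured value, but the list was drawn up with earlier results of these data known. All 32 were found among the 18193 genes that a single-gene probe set of the array represents, and each gene was read from its brightest probe set by mean. Of the 32, 29 passed the filter on low intensities and entered the tests, while Gpr34, Itgam and Cyth4 lay under it and are given as values. The interneurons came from the caudal ganglionic eminence, an embryonic structure from which many interneurons of the upper cortical layers arise, and were isolated by flow cytometry for GFP driven by GAD65, the gene for a GABA-synthesising enzyme. All animals carried GAD65-GFP. The groups were GAD65-GFP mice lacking Htr3a (Htr3a-KO), a subunit of the serotonin-gated cation channel that marks this interneuron class, and GAD65-GFP controls. Both were sampled at the embryonic ages E14.5 and E18.5 and on postnatal day 2 (P2), with 3 arrays in each of the 6 groups. At least 4 brains were pooled for an array, and the 3 arrays of a group came from different litters.

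Microglia descend from yolk sac macrophages that enter the embryonic brain early and then multiply within it. Their survival depends on the receptor Csf1r and their identity on the transcription factor PU.1 (gene Spi1). Around birth they engulf dying cells and synaptic material, partly with the help of complement C1q. Border macrophages share most of this equipment and are set apart by genes such as Mrc1 and Pf4. In RNA from a sorted pool, fewer cells of a type and less RNA per cell cannot be told apart, so each level below is that of a whole sorted sample. Sort purity was not analysed here, and whether macrophages were sorted together with the interneurons was not tested.

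The deposited values were log2 intensities, and every level and difference below is on that scale unless a fold is named. Arrays of one group correlated between 0.984 and 0.996 over all probe sets, and arrays of different groups between 0.949 and 0.995. The deleted gene Htr3a lay between 6.61 and 7.41 in Htr3a-KO arrays and between 7.65 and 10.79 in control arrays. It was lower in Htr3a-KO at E18.5 (difference -3.51, limma adjusted p = 7.66e-06) and at P2 (-1.94, limma adjusted p = 0.0109), whereas the difference at E14.5 was -0.75 (limma adjusted p = 0.708). Gad1 and Gad2, which encode the GABA-synthesising enzymes, differed between genotypes by -0.58 to -0.02 and by -0.55 to -0.31 at the 3 ages, and neither passed. The threshold was an adjusted p under 0.05, by Benjamini-Hochberg over the 14292 genes tested.

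PU.1 binds a purine-rich DNA core, GAGGAA, and much of the macrophage programme is known to depend on it. The 250 bases before each gene's start were therefore searched for GAGGAA on both strands, in RefSeq promoter sequences of mouse build GRCm38.p6. Of the 32 genes, 24 were matched by symbol (Csf1r, Spi1, Tmem119, Gpr34, Tyrobp, C1qa, Cd14 and Ccl4 were not). The core was present in 16 of these (66.7%), against 6986 of the 27025 genes in the table (25.9%). A match is only the presence of these letters in the window. In 10 of the 16 genes the window lay outside the gene's own annotated span, and in 6, among them C1qc, Laptm5 and Fcgr3, it overlapped that span. Windows are printed for 4 of the 10, those with the smallest p when P2 controls were compared with E18.5 controls. They are Mrc1 (chr2:14229164-14229413, plus strand), Pf4 (chr5:90772185-90772434, plus strand), C1qb (chr4:136886201-136886450, minus strand) and Ccl3 (chr11:83649379-83649628, minus strand). Each is written 5′ to 3′ toward the gene. Capitals mark GAGGAA or, where the core lies on the other strand, its reverse complement.
Mrc1: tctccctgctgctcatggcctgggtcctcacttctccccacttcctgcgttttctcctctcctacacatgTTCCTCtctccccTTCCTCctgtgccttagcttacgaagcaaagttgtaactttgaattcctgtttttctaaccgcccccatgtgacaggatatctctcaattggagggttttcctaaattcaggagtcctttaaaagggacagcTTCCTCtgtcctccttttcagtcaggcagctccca
Pf4: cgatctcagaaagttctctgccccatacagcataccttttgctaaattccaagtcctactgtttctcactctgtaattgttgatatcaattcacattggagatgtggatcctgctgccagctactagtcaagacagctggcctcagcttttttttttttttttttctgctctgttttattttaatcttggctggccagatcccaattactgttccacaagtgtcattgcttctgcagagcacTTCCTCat
C1qb: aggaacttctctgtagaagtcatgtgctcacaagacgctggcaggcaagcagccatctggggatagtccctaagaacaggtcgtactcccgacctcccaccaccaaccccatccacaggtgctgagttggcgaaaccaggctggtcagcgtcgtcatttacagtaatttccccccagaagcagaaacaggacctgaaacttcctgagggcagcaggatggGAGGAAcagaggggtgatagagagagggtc
Ccl3: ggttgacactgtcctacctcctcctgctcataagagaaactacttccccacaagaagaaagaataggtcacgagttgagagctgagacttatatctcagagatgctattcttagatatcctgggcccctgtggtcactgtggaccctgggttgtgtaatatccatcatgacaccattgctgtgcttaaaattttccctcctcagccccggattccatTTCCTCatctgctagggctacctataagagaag
The Mrc1 window held 3 cores, whose first bases lay 180, 167 and 35 bases before the start. The others held 1 each, which began 8 bases before the start of Pf4, 30 before that of C1qb and 33 before that of Ccl3.

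The 32 genes went up and down together from array to array, with wide gaps between arrays of one group. Averaged over the 32 genes, the E14.5 Htr3a-KO arrays read 8.63, 7.40 and 6.65, against 6.0, 5.92 and 7.05 in the E14.5 controls. The E18.5 Htr3a-KO arrays read 6.24, 6.65 and 6.23, against 7.02, 6.0 and 6.09 in the E18.5 controls. The P2 Htr3a-KO arrays read 6.59, 6.96 and 6.40, against 9.28, 7.79 and 6.63 in the P2 controls. Array 1 of the P2 controls gave the highest of the 18 values for 30 of the 32 genes, and array 1 of the E14.5 Htr3a-KO group for the other 2, Ccl3 and Ccl4. Within its group, array 1 of the E14.5 Htr3a-KO samples was the highest for 31 of 32 genes, Pf4 being the exception, and array 1 of the P2 controls for all 32.

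**Figure D1:**
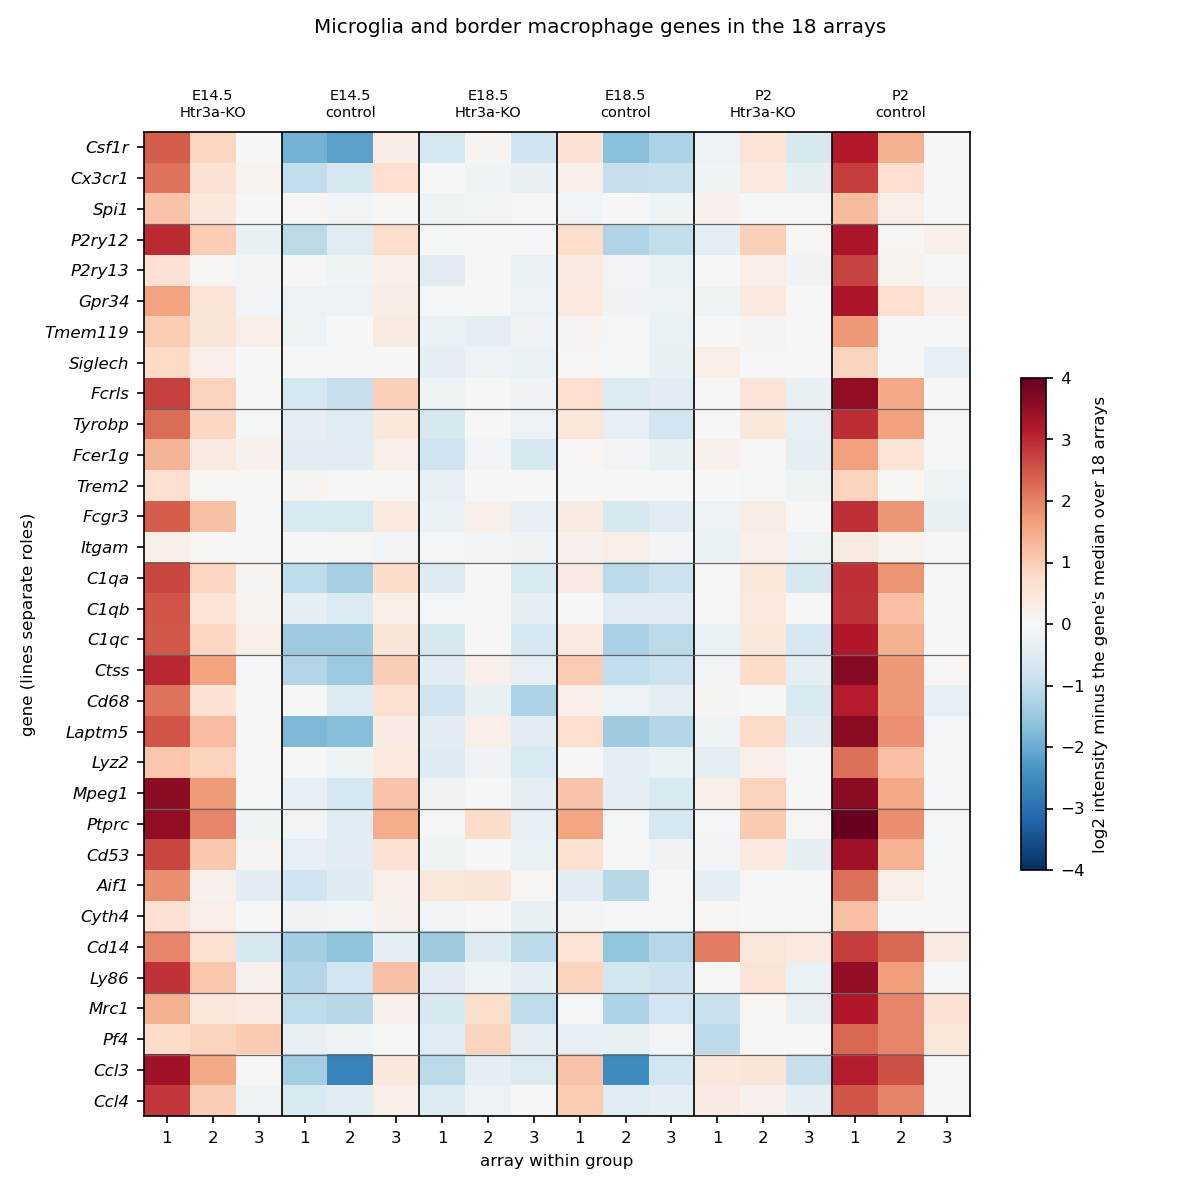
Rows are the 32 genes and columns the 18 arrays. Colour gives the log2 intensity minus the gene's median over the 18 arrays, and lines separate roles and groups. Array 1 of E14.5 Htr3a-KO and array 1 of the P2 controls are raised in nearly every row, and 30 of the 32 genes have their highest value in array 1 of the P2 controls.

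The spread within groups was several times that of other genes and differed among the groups. The median SD within groups was 0.891 for the 32 genes, against 0.182 for all genes tested, those of the list included. Of all genes tested, 47 (0.329%) exceeded 0.891, among them genes of the list such as Csf1r (1.14) and Ctss (1.23). Taken group by group, the median SD over the 32 genes was 1.18 in E14.5 Htr3a-KO and 0.564 in E14.5 control. It was 0.246 in E18.5 Htr3a-KO and 0.548 in E18.5 control, and 0.387 in P2 Htr3a-KO and 1.48 in P2 control. A single principal component held 88.8% of the variance of the 32 genes within groups, and the second held 4.15%. Correlations within the list were taken after each group's mean was subtracted. They are a description over the 18 arrays, which share the sorting and the normalization. On that basis 30 of the 32 genes correlated at 0.822 to 0.992 with the mean of the others. The exceptions were Itgam, at 0.552, and Pf4, at 0.473.

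Csf1r, the receptor for the growth factors CSF1 and IL-34, followed the common pattern. In the E14.5 Htr3a-KO arrays it read 12.11, 10.53 and 9.68, against 7.80, 7.53 and 9.97 in the E14.5 controls. The E18.5 values were 9.01, 9.80 and 8.90 in Htr3a-KO and 10.26, 8.02 and 8.43 in control. The P2 values were 9.44, 10.22 and 9.03 in Htr3a-KO and 12.86, 11.12 and 9.69 in control. The genotypes overlapped at every age, at E14.5 through 1 high control array and at P2 through 1 high Htr3a-KO array. Cx3cr1, the receptor for the neuronal chemokine fractalkine, spanned 5.85 to 9.58 over the 18 arrays. Spi1, which encodes PU.1, spanned 6.35 to 7.79, and its 2 values above 7 were those of array 1 of E14.5 Htr3a-KO and array 1 of the P2 controls.

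P2ry12, the ADP receptor with which microglia steer their processes, lay close to the filter level of 5.255 in many arrays. It read 8.50, 6.51 and 5.20 in E14.5 Htr3a-KO arrays, against 4.44, 5.04 and 6.21 in E14.5 controls. At P2 the readings were 5.16, 6.45 and 5.56 in Htr3a-KO, against 8.74, 5.58 and 5.71 in control. At P2 only the first control array thus stood above the Htr3a-KO range. The same held for P2ry13, a related ADP receptor, which read 5.81, 6.05 and 5.66 in P2 Htr3a-KO arrays, against 8.51, 5.96 and 5.81 in P2 controls. Tmem119, a membrane protein that marks parenchymal microglia, read 6.37, 6.46 and 6.34 in P2 Htr3a-KO arrays, against 8.08, 6.31 and 6.31 in P2 controls. In the P2 controls these 3 genes were raised in array 1 and not in arrays 2 and 3. Siglech, a sialic acid-binding lectin, spanned 6.13 to 7.36, and Fcrls, an Fc receptor-like protein, spanned 6.49 to 10.96. Gpr34, a receptor for lysophosphatidylserine, lay under the filter level in every array but array 1 of the P2 controls, where it read 6.60.

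Tyrobp, the adaptor through which Trem2 and related receptors signal, read 8.91, 7.51 and 6.60 in E14.5 Htr3a-KO arrays, against 6.28, 6.21 and 7.09 in E14.5 controls. Its P2 values were 6.68, 7.11 and 6.34 in Htr3a-KO arrays, against 9.62, 8.31 and 6.73 in controls. Here 2 of the 3 P2 control arrays exceeded every P2 Htr3a-KO array. Trem2, a lipid-sensing receptor, spanned only 6.05 to 7.32. Fcer1g, a signalling chain shared by Fc receptors, spanned 5.99 to 8.42, and Fcgr3, a low-affinity receptor for IgG, spanned 5.46 to 9.05. Itgam, the integrin chain CD11b, stayed between 3.44 and 4.06, under the filter level in all 18 arrays.

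The C1q genes encode the 3 chains of the molecule that starts the classical complement cascade. C1qc read 9.63, 7.97 and 7.38 in E14.5 Htr3a-KO arrays, against 5.68, 5.68 and 7.63 in E14.5 controls. Its E18.5 readings were 6.49, 7.14 and 6.44 in Htr3a-KO, against 7.50, 5.86 and 6.06 in control. Its P2 readings were 6.89, 7.56 and 6.48 in Htr3a-KO, against 10.36, 8.58 and 7.15 in control. The highest control array at E14.5 lay within the Htr3a-KO range, and so did the lowest control array at P2. C1qa spanned 5.94 to 10.18 and C1qb 6.95 to 10.37.

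Lyz2, which encodes the secreted enzyme lysozyme, read 8.07, 7.90 and 6.95 in E14.5 Htr3a-KO arrays, against 6.99, 6.79 and 7.35 in E14.5 controls. At E18.5 it measured 6.46, 6.82 and 6.35 in Htr3a-KO, against 6.98, 6.57 and 6.72 in control. At P2 it measured 6.60, 7.17 and 6.96 in Htr3a-KO, against 9.16, 8.17 and 6.98 in control. The P2 genotypes overlapped through the third control array alone. Among the lysosomal genes, Ctss (the protease cathepsin S) spanned 7.67 to 12.81, Laptm5 (a lysosomal membrane protein) 6.28 to 11.68 and Cd68 (another) 5.05 to 9.43. Mpeg1, a pore-forming defence protein, spanned 6.56 to 10.88.

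Ptprc, the leukocyte phosphatase CD45, had one of the widest gaps between arrays of a group. It read 8.82, 7.22 and 5.10 in E14.5 Htr3a-KO arrays, against 5.17, 4.80 and 6.74 in E14.5 controls. At P2 its values were 5.21, 6.31 and 5.32 in Htr3a-KO arrays, against 9.47, 7.14 and 5.20 in controls. In the lowest array of each raised group the gene was thus back at the level of the other genotype. Cd53, a leukocyte tetraspanin, spanned 4.87 to 8.68, and Aif1, the actin-binding protein IBA1, spanned 4.35 to 7.64. Cyth4, a regulator of ARF GTPases, stayed between 4.02 and 5.53.

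Cd14, the co-receptor for bacterial endotoxin, read above 8 in every P2 array of both genotypes and in 3 of the 12 embryonic arrays. It read 9.67, 8.32 and 7.08 in E14.5 Htr3a-KO arrays, against 6.35, 6.09 and 7.35 in E14.5 controls. The E18.5 readings were 6.28, 7.20 and 6.64 in Htr3a-KO and 8.26, 6.13 and 6.58 in control. The P2 readings were 9.77, 8.17 and 8.11 in Htr3a-KO and 10.48, 10.02 and 8.07 in control. All 3 P2 Htr3a-KO arrays lay above all 3 E18.5 Htr3a-KO arrays, which was so for Cd14, Tmem119 and Siglech and for 22.8% of all genes tested. Ly86, the secreted partner of a Toll-like receptor homologue, spanned 5.83 to 10.52 and followed the other genes.

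The chemokines Ccl3 and Ccl4 attract leukocytes. Ccl3 read 11.42, 9.59 and 8.13 in E14.5 Htr3a-KO arrays, against 6.67, 5.41 and 8.49 in E14.5 controls. The E18.5 figures were 7.01, 7.69 and 7.50 in Htr3a-KO, against 9.22, 5.57 and 7.33 in control. The P2 figures were 8.50, 8.57 and 7.15 in Htr3a-KO, against 11.23, 10.63 and 8.02 in control. Controls varied more than Htr3a-KO arrays at E18.5, with the highest and the lowest value both in controls. Ccl4 spanned 6.95 to 10.38.

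Mrc1, the mannose receptor CD206 of border macrophages, did not overlap between genotypes at E14.5 or at P2. Of all genes tested, 4.98% were higher in Htr3a-KO without overlap at E14.5, and 5.79% were lower without overlap at P2. In the E14.5 Htr3a-KO arrays it read 8.19, 7.24 and 7.15, against 5.75, 5.67 and 6.96 in the controls of that age. At E18.5 the arrays read 6.13, 7.47 and 5.76 in Htr3a-KO, against 6.69, 5.55 and 6.01 in control. At P2 the arrays read 5.88, 6.87 and 6.45 in Htr3a-KO, against 9.99, 8.72 and 7.35 in control. Pf4, the chemokine known as platelet factor 4, which megakaryocytes and platelets make as well, did the same. In the E14.5 Htr3a-KO arrays Pf4 read 7.94, 8.10 and 8.25, against 6.89, 7.02 and 7.22 in the E14.5 controls. The E18.5 arrays gave Pf4 6.72, 8.10 and 6.82 in Htr3a-KO, against 6.88, 6.91 and 7.08 in control. The P2 arrays gave Pf4 6.14, 7.19 and 7.20 in Htr3a-KO, against 9.50, 9.14 and 7.64 in control. At E14.5 Pf4 was as high in array 3 as in array 1 of Htr3a-KO, although the 30 genes other than Mrc1 and Pf4 averaged 8.67 in array 1 and 6.58 in array 3.

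**Figure D2:**
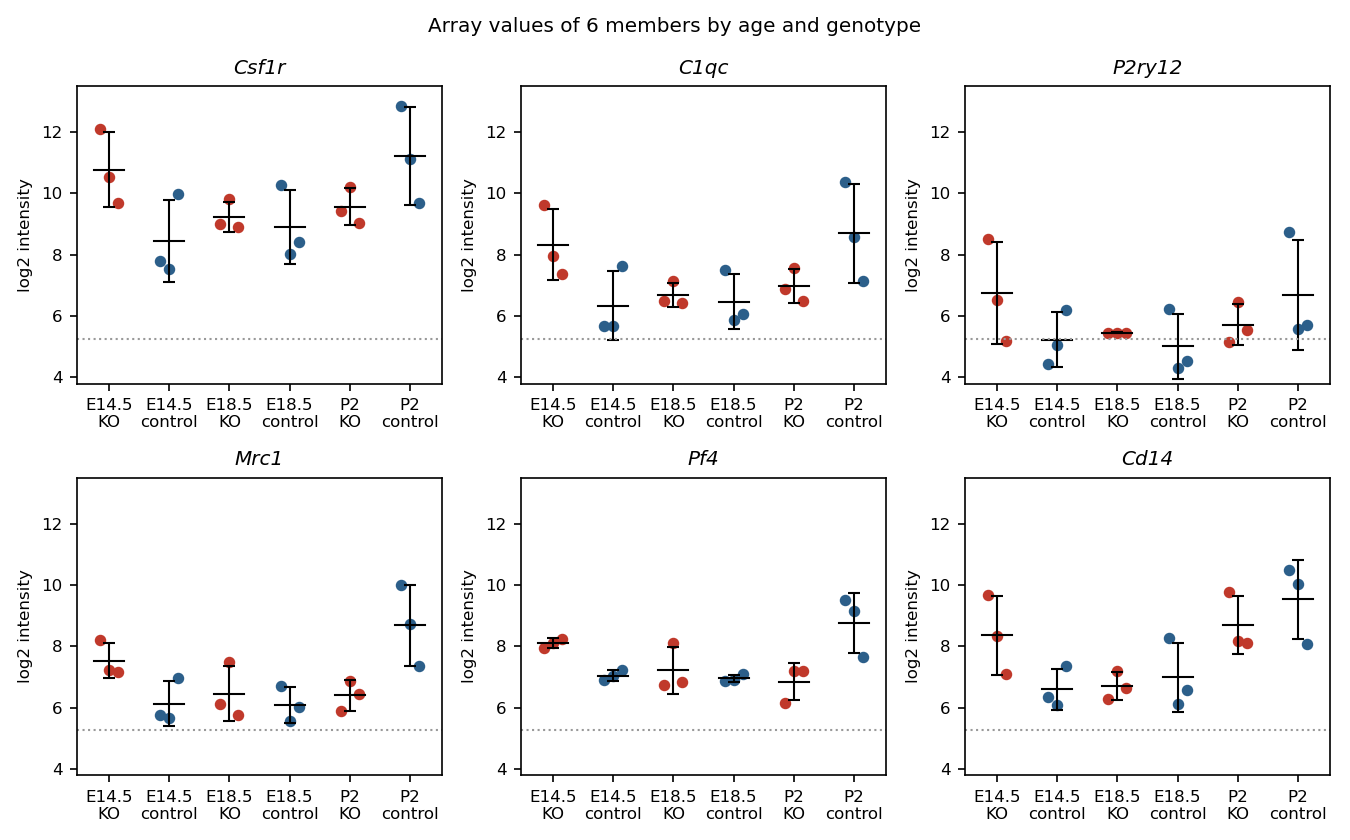
Points are the log2 intensities of the 3 arrays of each group for Csf1r, C1qc, P2ry12, Mrc1, Pf4 and Cd14, with the mean and 1 SD as black bars and the filter level of 5.255 dotted. Mrc1 and Pf4 have no overlap between genotypes at E14.5 or at P2, as have 4.98% and 5.79% of all genes tested in these directions. The 3 Pf4 points of E14.5 Htr3a-KO lie between 7.94 and 8.25.

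The first comparison asked whether the genes differed between genotypes at each age. At E14.5 all 32 were higher in Htr3a-KO than in control by mean (53.1% of all genes tested were), but 0 of 29 passed the limma test, against 0.014% of all genes. The median difference was 1.31, against 0.01 over all genes tested. At an unadjusted p under 0.05 limma counted 13 of 29 as higher, against 3.81% of all genes. Since the genes moved together from array to array, this and the later counts of them are not counts of independent observations. The differences ran between 0.09 for Itgam and 2.86 ± 1.02 (SE) for Ccl3, whose limma adjusted p was 0.718. Laptm5 differed by 2.31 ± 0.84 (SE), Csf1r by 2.34 ± 0.83 and C1qc by 2.00 ± 0.75, with limma adjusted p of 0.721, 0.71 and 0.726. The values of Laptm5 and Csf1r are those of their brightest probe sets, and other probe sets gave -0.03 to 0.71 for Laptm5 and 0.66 and 1.57 for Csf1r. Without array 1 of E14.5 Htr3a-KO the median was 0.63. Only Mrc1 and Pf4 had no overlap between the genotypes, which 4.98% of all genes tested showed in this direction, and their differences were 1.40 ± 0.59 and 1.05 ± 0.42 (SE), with limma adjusted p of 0.804 and 0.756.

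At E18.5 the genotypes overlapped for 31 of the 32 genes. The median difference was -0.07, against -0.06 over all genes, with 13 of the 32 genes above 0 and 19 below. Of all genes tested, 37.9% were above 0. In the limma test 0 of 29 passed (0.021% of all genes did), and at an unadjusted p under 0.05 the count was also 0 in either direction, against 3.45% of all genes higher and 9.45% lower. Without array 1 of the E18.5 controls the median was 0.33. The largest positive difference was that of Aif1, 0.86 ± 0.55 (SE, limma adjusted p = 0.534). Aif1 read 5.89, 5.94 and 5.49 in Htr3a-KO, against 5.02, 4.35 and 5.37 in control, without overlap, which 5.56% of all genes showed in this direction. The largest negative difference was that of Cd68, -0.64 ± 0.67 (SE, limma adjusted p = 0.719).

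At P2 all 32 genes were lower in Htr3a-KO than in control by mean (39.7% of all genes tested were above 0), and again 0 of 29 passed the limma test, against 0.035% of all genes. The median difference was -1.39, against -0.04 over all genes. At an unadjusted p under 0.05 limma counted 10 of 29 as lower, against 5.44% of all genes. The differences ran between -2.29 ± 0.59 (SE) for Mrc1 and -0.12 ± 0.24 for Siglech. Mrc1 (limma adjusted p = 0.483) and Pf4 (-1.92 ± 0.42, limma adjusted p = 0.311) were without overlap between genotypes, as were 5.79% of all genes in this direction. The median was -0.61 without array 1 of the P2 controls and -2.21 without array 3. Without array 3, Pf4 passed, with a difference of -2.48 and a limma adjusted p of 0.0172. Over the mean of the 3 ages the median difference was -0.04, and 0 of 29 genes passed in limma, against 0.294% of all genes. There too the count at an unadjusted p under 0.05 was 0, against 4.01% of all genes higher and 7.19% lower.

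**Figure D3:**
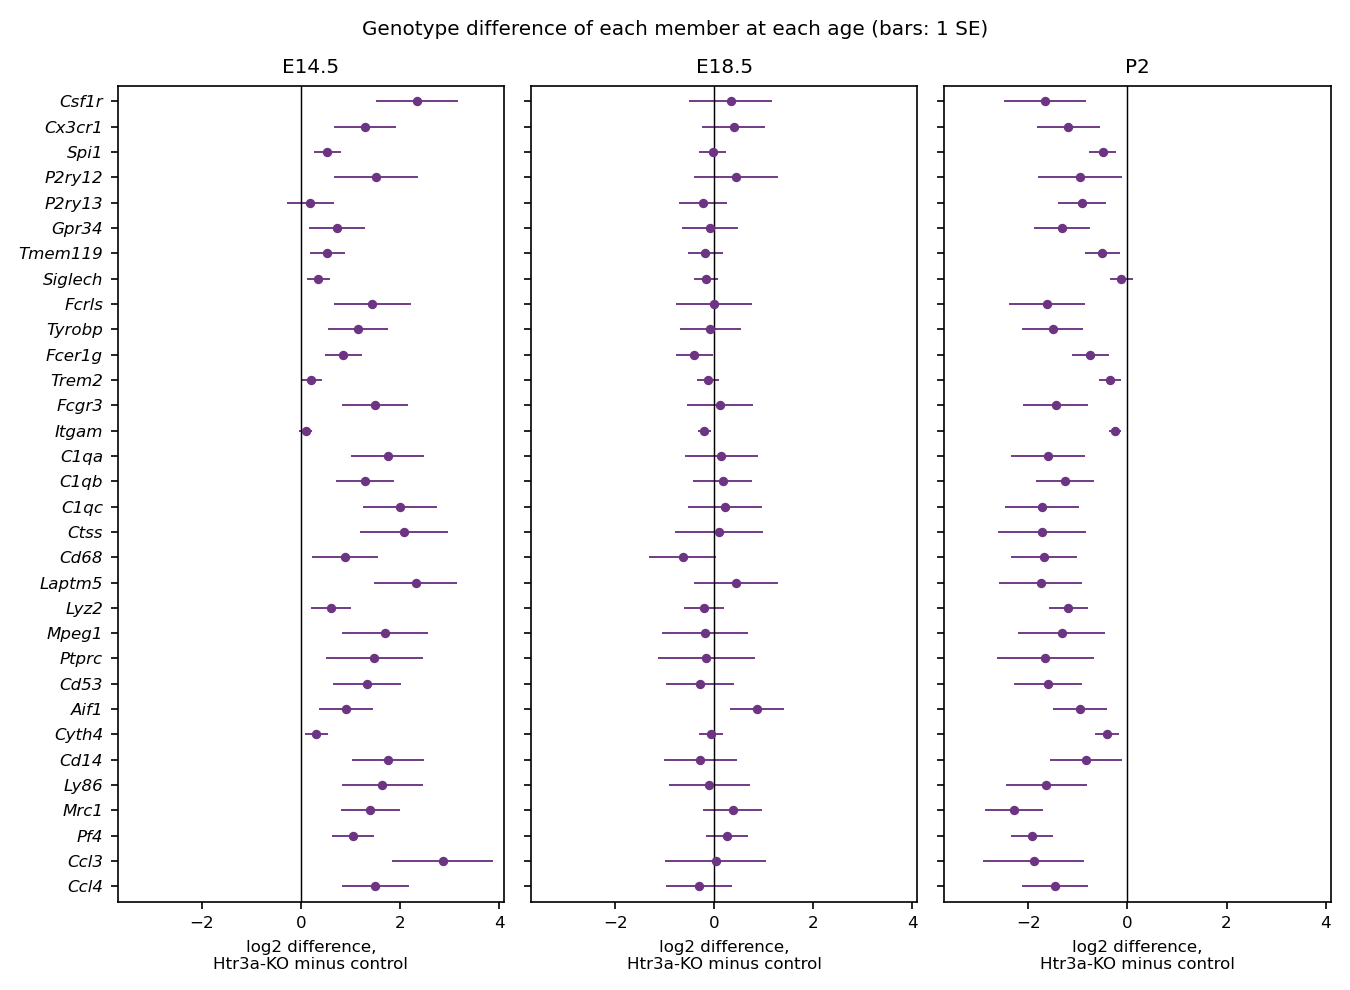
Points give the log2 difference, Htr3a-KO minus control, of each of the 32 genes at E14.5, E18.5 and P2, with bars of 1 SE. All points lie above 0 at E14.5 and below 0 at P2, with medians of 1.31 and -1.39, and none passed an adjusted p under 0.05 in limma.

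The opposite signs at E14.5 and P2 come from separate arrays, and the difference between the genotype effects at these ages was tested as an interaction, a comparison added after the data had been seen. The P2 effect minus the E14.5 effect was below 0 for all 32 genes (40.5% of all genes tested were above 0). Its median was -2.63, against -0.05 over all genes. In limma 0 of 29 genes passed, as did 0% of all genes. At an unadjusted p under 0.05 the count was 25 of 29, against 4.79% of all genes in this direction. These 25 are not independent, since 1 component held 88.8% of the variance of the 32 genes within groups. Pf4 had -2.97 ± 0.59 and Mrc1 -3.69 ± 0.83 (SE), both with a limma adjusted p of 0.549. Without array 3 of the P2 controls Pf4 passed, at -3.53 with a limma adjusted p of 0.0216. Ccl3 had the widest difference, -4.74 ± 1.45 (SE, limma adjusted p = 0.76), followed by Laptm5, at -4.06 ± 1.19, and Csf1r, at -4.0 ± 1.17.

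The second comparison followed the genes over age in each genotype. The steps into and out of E18.5 share the E18.5 arrays, and the P2 controls also serve the genotype comparison at P2, so these values are not independent of each other. Between E14.5 and E18.5 the controls had a median difference of 0, and 0 of 29 genes passed in limma, whereas 11% of all genes did. At an unadjusted p under 0.05 the count was likewise 0, against 12.4% of all genes higher and 13.1% lower. In Htr3a-KO all 32 genes were lower at E18.5 than at E14.5 by mean (36.4% of all genes tested were above 0). The median difference was -1.29, against -0.10 over all genes. Again 0 of 29 passed in limma, against 15.1% of all genes, and 12 of 29 were lower at an unadjusted p under 0.05, against 20.6%. Groups without overlap were found for 15 of the 32 genes, among them C1qa, C1qb and C1qc, and for 24.5% of all genes in this direction. Fcer1g came closest to passing, at -1.14 ± 0.37 (SE, limma adjusted p = 0.0501). The median was -0.72 without array 1 of E14.5 Htr3a-KO. The count that passed was 6 without array 1 of the P2 controls, 3 without array 3 of E14.5 Htr3a-KO, 3 without array 3 of the P2 controls and 1 without array 3 of the E14.5 controls. These control arrays enter only through the shared estimate of the spread.

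Between E18.5 and P2, 5 of 29 genes rose in controls, where 9.96% of all genes tested rose. They were Mrc1, at 2.60 ± 0.59 (SE, 6.08-fold, limma adjusted p = 0.0064), Pf4, at 1.80 ± 0.42 (3.49-fold, limma adjusted p = 0.00759), and Cd14, at 2.53 ± 0.73 (5.79-fold, limma adjusted p = 0.0232). The other 2 were Lyz2, at 1.35 ± 0.40 (SE, 2.54-fold, limma adjusted p = 0.0278), and C1qc, at 2.22 ± 0.75 (4.67-fold, limma adjusted p = 0.0481). These 5 are both border macrophage genes, an endotoxin co-receptor, lysozyme and a C1q chain. Of the receptors Csf1r, Cx3cr1, P2ry12, P2ry13, Tmem119, Siglech and Fcrls none passed, and their differences ran between 0.29 and 2.32. That of Csf1r (2.32 ± 0.83, SE, limma adjusted p = 0.0599) was larger than those of Pf4, Lyz2 and C1qc, which passed. Others that missed narrowly in limma were Laptm5 (adjusted p = 0.0528), Tyrobp (0.0557), C1qa (0.06) and C1qb (0.0638). The median over the 32 genes was 1.66, against -0.04 over all genes. All 32 were above 0, against 44.1% of all genes tested. At an unadjusted p under 0.05, 21 of 29 were higher, against 15% of all genes. Groups without overlap were found for Spi1, Aif1, Cyth4, Mrc1 and Pf4, and for 15.7% of all genes in this direction.

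Leaving out single arrays changed this count. Mrc1 and Pf4 passed under every alternative that was run, with limma adjusted p between 0.00161 and 0.0363 and between 0.000654 and 0.039. The count was 2 without array 2 or array 3 of the E18.5 controls and without array 1 or array 2 of the P2 controls. C1qc missed the threshold in 18 of 30 alternatives, with limma adjusted p between 0.0145 and 0.192 over the 30, among them no filter on low intensities (0.0593), quantile normalization (0.0527) and array weights (0.0924). Cd14 missed it in 6 of 30 and Lyz2 in 7. The count was 20 without array 3 of the P2 controls, 11 without array 1 of E14.5 Htr3a-KO and 8 without array 3 of either E14.5 group. The median was 0.85 without array 1 of the P2 controls.

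In Htr3a-KO the step between E18.5 and P2 was at most 0.67 for every gene but Cd14. The median difference was 0.27, against 0 over all genes, and 0 of 29 passed in limma, against 28.5% of all genes. Without array 2 of P2 Htr3a-KO the median was 0.04, and without array 1 or 3 of E18.5 Htr3a-KO it was 0.17 or 0.16. At an unadjusted p under 0.05 only Cd14 was higher (1 of 29, against 19.4% of all genes), at 1.98 ± 0.73 (SE, limma adjusted p = 0.0537). Cd14 passed without any one of 5 arrays, with limma adjusted p between 0.0346 and 0.0493: array 1 or 3 of E14.5 Htr3a-KO, array 1 of the E18.5 controls, and array 1 or 3 of the P2 controls. Mrc1 differed by -0.05 ± 0.59 and Pf4 by -0.37 ± 0.42 (SE). Over the mean of both genotypes, a comparison added after the data had been seen, 3 of 29 genes rose between E18.5 and P2, where 17.6% of all genes rose. They were Cd14 (2.26 ± 0.52, SE, limma adjusted p = 0.00279), Mrc1 (1.27 ± 0.42, 0.0236) and Lyz2 (0.86 ± 0.28, 0.0253). This count was 21 without array 3 of the P2 controls, 7 without array 1 of E14.5 Htr3a-KO or of the E18.5 controls, and 5 without array 2 of E18.5 Htr3a-KO. It was 1 without array 1 or 3 of E18.5 Htr3a-KO, array 2 of the E18.5 controls, array 2 of P2 Htr3a-KO or array 1 of the P2 controls.

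**Figure D4:**
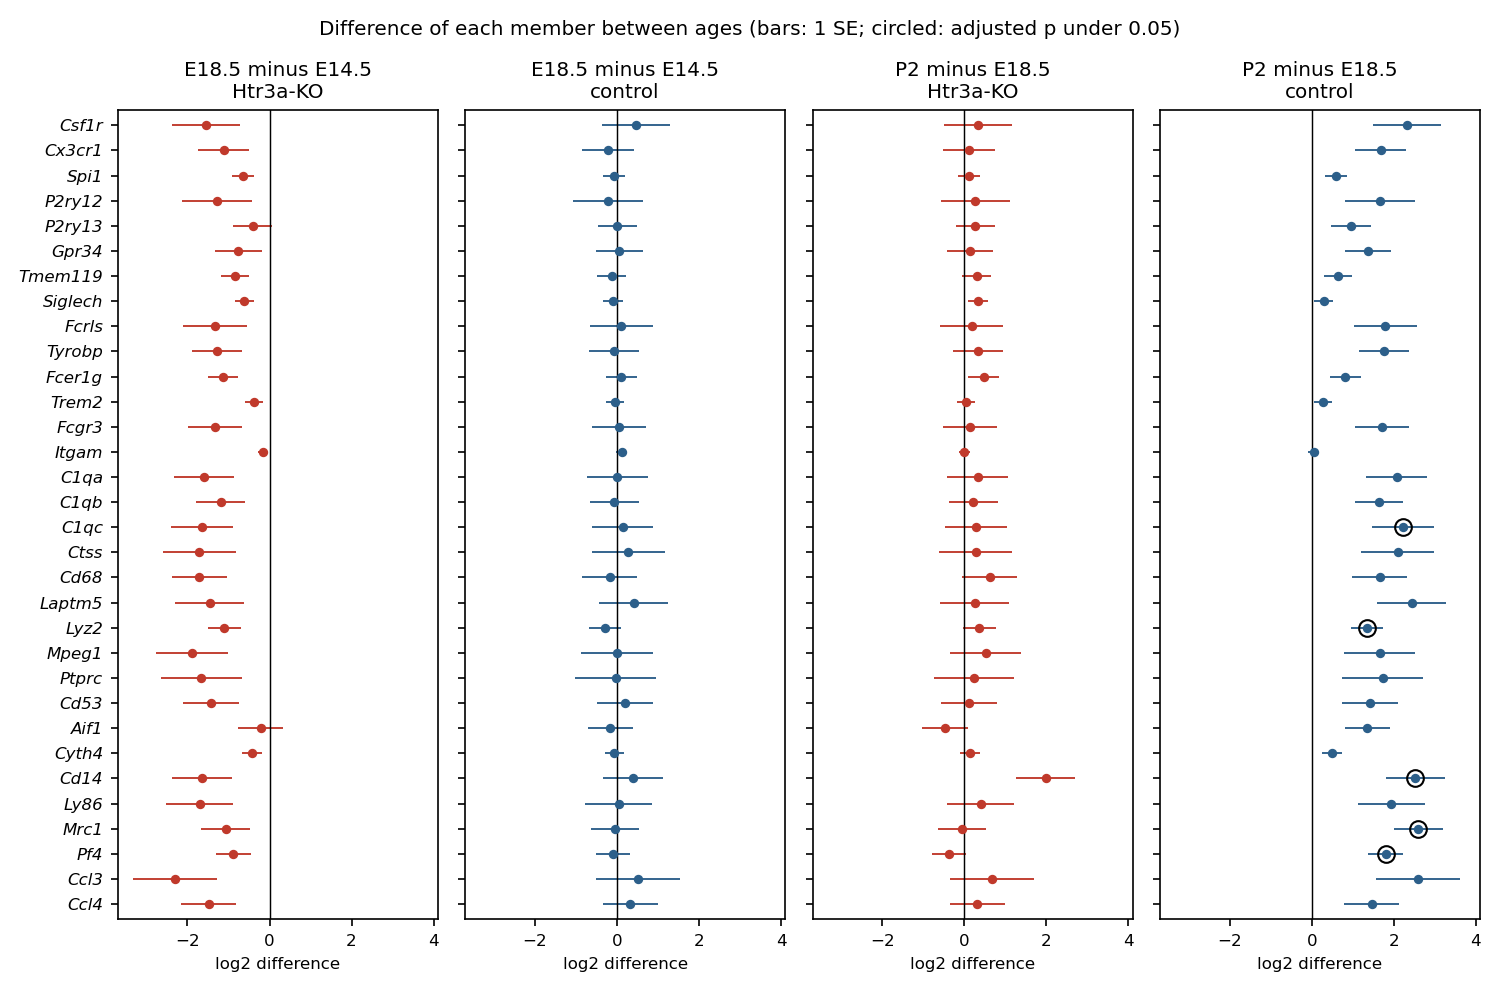
Points give the log2 difference of each of the 32 genes for E18.5 minus E14.5 and for P2 minus E18.5, in Htr3a-KO and in control, with bars of 1 SE. Circled genes had an adjusted p under 0.05 in limma: Mrc1, Pf4, Cd14, Lyz2 and C1qc, in P2 minus E18.5 of the controls.

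The age steps were not shown to differ between genotypes for any of the 32 genes. For the step between E14.5 and E18.5, Htr3a-KO minus control had a median of -1.24 (against -0.08 over all genes), and 0 of 29 genes passed in limma, against 0.007% of all genes. For the step between E18.5 and P2 the median was -1.41 (against 0.01 over all genes), and 0 of 29 passed, as did 0% of all genes. At an unadjusted p under 0.05 the counts were 1 of 29 (Fcer1g), against 5.1% of all genes lower, and 3 of 29 (Pf4, Mrc1 and Aif1), against 2.67%. For the step between E18.5 and P2, Pf4 had -2.17 ± 0.59 and Mrc1 -2.66 ± 0.83 (SE), both with a limma adjusted p of 0.644.

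Further genes known from macrophages were tested in the same comparisons. Of 26 further microglia genes tested, 5 rose in controls between E18.5 and P2, against 9.96% of all genes. The list median was 0.43, over the 29 on the array. Mertk, a receptor for engulfing dying cells that astrocytes also use, rose by 2.19 ± 0.32 (SE, limma adjusted p = 0.000281), and the ectonucleotidase Entpd1 by 1.31 ± 0.33 (limma adjusted p = 0.0111). In Htr3a-KO 4 of the 26 rose and 1 fell in that step (median 0.25), and Mertk rose there too, by 1.83 ± 0.32 (SE, limma adjusted p = 0.000863). Of 8 further border macrophage genes tested, 5 rose in the controls in the same step and 1 rose in Htr3a-KO. The medians over the 12 on the array were 0.66 and 0.13. The scavenger receptor Stab1 rose by 1.65 ± 0.46 (SE, limma adjusted p = 0.0192), Ms4a7 by 1.21 ± 0.28 (0.00796) and the hyaluronan receptor Lyve1 by 0.77 ± 0.19 (0.0103). Ms4a7 read 7.58, 7.62 and 6.24 in the P2 controls, against 5.92, 5.95 and 5.93 in the E18.5 controls, without overlap. Of 17 genes of microglia activation, 5 rose in Htr3a-KO (median 0.43) and 6 in control (median 1.09), among these 6 Apoe, which carries lipids and is made by astrocytes as well, by 4.32 ± 0.45 (SE, limma adjusted p = 1.95e-05). Apoe rose in Htr3a-KO too, by 3.96 ± 0.45 (limma adjusted p = 3.49e-05), beside 7 of 9 astrocyte genes in each genotype.

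Genes for ligands of these receptors were tested as well. In controls 3 of 6 rose between E18.5 and P2, against 9.96% of all genes. The list median was 0.34, over the 7 on the array. Tgfb2, a transforming growth factor, rose by 2.91 ± 0.34 (SE, limma adjusted p = 4.52e-05), Csf1, a ligand of Csf1r, by 0.99 ± 0.27 (0.0173) and Cx3cl1, the ligand of Cx3cr1, by 0.79 ± 0.19 (0.0103). In Htr3a-KO, Tgfb2 rose by 2.42 ± 0.34 (SE, limma adjusted p = 0.000169) and Cx3cl1 by 0.78 ± 0.19 (0.00872). For the macrophage and ligand lists just named, 0 genes passed in limma in the genotype comparisons at E14.5 or P2. Their medians at E14.5, over the genes on the array, were 0.28 for further microglia genes, 0.23 for further border macrophage genes, 0.78 for activation and 0.04 for ligands. At P2 the medians were -0.35, -0.57, -0.74 and -0.03 in the same order.

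After each group's mean was subtracted, the 10 genes outside the list that followed its mean most closely over the 18 arrays were Adgre1, Plek, Evi2a, C3ar1, Tlr2, Tnfaip3, Gpr84, Tnfrsf1b, Cd86 and Ncf1, with Pearson correlations between 0.966 and 0.989. Their differences between genotypes ran between 0.84 and 1.66 at E14.5 and between -1.70 and -0.99 at P2. Adgre1, at 0.989, spanned 5.43 to 8.83.

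Many markers of other blood cells lay under the filter level of 5.255, so their list means say little about these cells. Of the genes on the array, 6 of 10 granulocyte and monocyte genes, 3 of 8 lymphocyte genes and 3 of 6 mast cell genes passed the filter. The mean of 10 granulocyte and monocyte genes stayed between 5.57 and 5.90 over the 18 arrays, that of 8 lymphocyte genes between 4.88 and 5.10, and that of 6 mast cell genes between 5.33 and 5.66. Markers of vessels moved with the 32 genes at E14.5. The mean of 16 endothelial and mural genes was 7.39, 6.63 and 6.26 in E14.5 Htr3a-KO arrays, against 5.64, 5.47 and 6.22 in E14.5 controls. The endothelial and mural mean was highest in array 1 of Htr3a-KO and array 3 of control, the arrays in which the 32 genes were also highest. At E18.5 this mean was 7.22, 7.24 and 6.77 in Htr3a-KO, against 6.2, 6.2 and 6.9 in control. In the E18.5 controls it was highest in array 3, whereas the 32 genes were highest in array 1. In E18.5 Htr3a-KO both were highest in array 2. At P2 it was 7.06, 8.42 and 8.03 in Htr3a-KO, against 7.35, 7.19 and 7.92 in control, and there it did not follow the 32 genes. The mean of 5 erythroid genes was 8.35, 6.81 and 7.45 in E14.5 Htr3a-KO, against 6.31, 7.09 and 6.94 in E14.5 control. It was highest in array 1 of Htr3a-KO, as the 32 genes were, but array 2 was lowest in Htr3a-KO and highest in control, unlike for the 32 genes. Its range came mainly from the embryonic globin Hbb-y, which read 12.64, 8.47 and 10.43 in E14.5 Htr3a-KO, against 7.56, 10.19 and 9.75 in E14.5 control. The mean of 9 meningeal genes at E14.5 was 6.71, 6.74 and 6.63 in Htr3a-KO, against 6.14, 6.17 and 6.37 in control. At P2 it was 6.62, 6.92 and 6.93 in Htr3a-KO, against 6.96, 6.61 and 6.86 in control. The part of these cells in the differences was not tested.

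**Figure D5:**
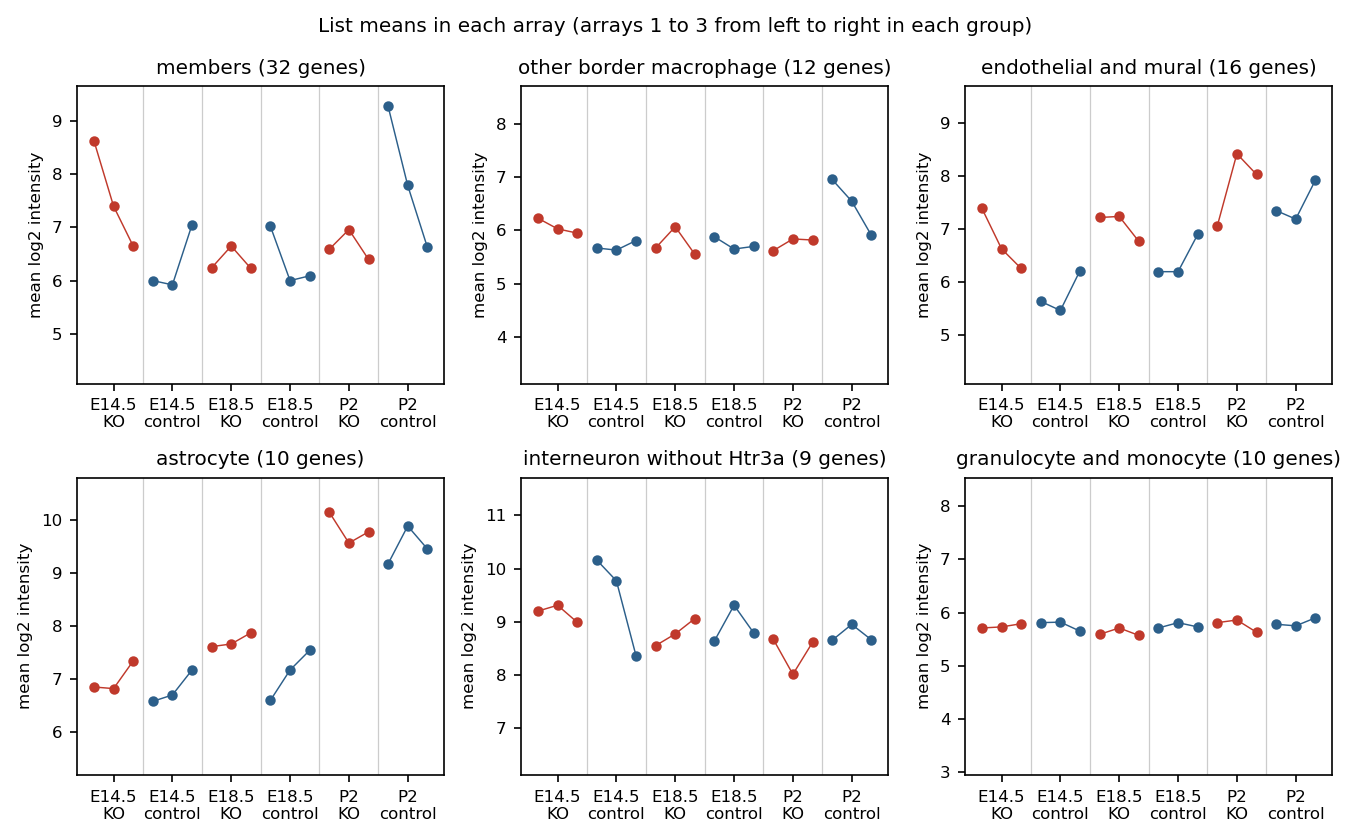
Points are the mean log2 intensity of a gene list in each array, joined within groups, for the 32 genes and 5 marker lists, on axes of equal height. The 32 genes reach 9.28 in array 1 of the P2 controls, while the granulocyte and monocyte list stays between 5.57 and 5.90 throughout.

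Lists for neurons and glia were read in the same arrays. One list held 10 interneuron genes, among them the deleted gene Htr3a, and it was averaged over the other 9. That mean was 9.20, 9.31 and 8.99 in E14.5 Htr3a-KO arrays, against 10.16, 9.77 and 8.36 in E14.5 controls. At P2 it was 8.67, 8.01 and 8.61 in Htr3a-KO, against 8.65, 8.95 and 8.66 in control, and the genotypes overlapped at both ages. In the E14.5 controls, array 3 had the lowest interneuron mean and the highest mean of the 32 genes. The mean of 10 astrocyte genes lay between 9.17 and 10.14 at P2 and between 6.58 and 7.87 at the embryonic ages. That of 9 oligodendrocyte lineage genes lay between 9.70 and 10.21 at P2 and between 6.32 and 8.98 at the embryonic ages. Excitatory neuron genes averaged between 7.30 and 8.62 at P2 and between 9.30 and 10.61 at the embryonic ages. Immediate early genes, which respond to dissociation and activity, averaged 9.32, 8.94 and 8.74 in E14.5 Htr3a-KO arrays, against 8.07, 8.69 and 8.80 in E14.5 controls, and between 10.49 and 11.03 at P2. Their part in the result was not tested.

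Probe sets of a gene agreed in direction for C1qb and Csf1r in both genotype comparisons, but not in size. At P2 the Csf1r differences were -1.66 for the probe set used and -1.50 and -0.78 for the others. Those of Laptm5 were -1.75 for the one used and between -1.16 and 0.21 for the others. For Laptm5, Cd53, Ptprc, Trem2 and Cx3cr1 one further probe set each stayed within 0.26 of 0 in the genotype comparisons at E14.5 and P2. The probe set used moved by more than this further one for each gene. It moved least for Trem2, by 0.21 and -0.36, against -0.06 and 0.05 for the further one.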

How the data were processed

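RNA of sorted interneurons was amplified, labelled with biotin and read on Mouse Genome 430 2.0 arrays of Affymetrix, per the labels. Per the same text, the authors used Partek Genomic Suite 6.6 and normalised with robust multi-array average (RMA), and the deposited values are log2 intensities. They were used as deposited. Precision is limited by the number of arrays. Of 45101 probe sets, 64 were controls, and the platform annotation named 1 gene for 34945, several for 932 and none for 9160. Probe sets in the lowest 30% by mean (under 5.255) were left out, and a gene with several was read from the one of highest mean.

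The 14292 genes left were fitted with limma (version 3.58.1, R version 4.3.3) as 6 group means with 12 residual degrees of freedom. The spread was estimated over the groups together, so a spread that differs among groups is averaged. A difference is Htr3a-KO minus control, or the later minus the earlier age. The tests were tried on simulated data with known changes. Same-numbered arrays did not deviate together (12 of 45 pairs correlated above 0.1, range -0.542 to 0.376), so numbers were not treated as pairs.

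The genes and the 15 further lists were chosen with earlier results of these data known. All 32 genes are named. Named beside them are Htr3a, Gad1 and Gad2, up to 3 passing genes of a list in a comparison, and the 10 genes most like the list. The alternatives were other filters, probe set summaries, normalizations, variance settings, thresholds and sets of arrays.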

Additional observations from a re-analysis of the deposited data

Results flagged for a closer look

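For Mrc1 the genotype difference had opposite directions at E14.5 and P2 with no overlap at either age. Taken singly, 4.98% of all genes tested were higher without overlap at E14.5, and 5.79% were lower without overlap at P2. The mean was 7.53 ± 0.58 in E14.5 Htr3a-KO, against 6.13 ± 0.72 in E14.5 control, and 6.40 ± 0.50 in P2 Htr3a-KO, against 8.69 ± 1.32 in P2 control (SD, n = 3 each). The P2 effect minus the E14.5 effect was -3.69, and this difference did not pass in limma (adjusted p = 0.549).

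For Pf4 the directions were opposite in the same way. The mean was 8.10 ± 0.16 in E14.5 Htr3a-KO, against 7.04 ± 0.17 in E14.5 control, and 6.84 ± 0.61 in P2 Htr3a-KO, against 8.76 ± 0.99 in P2 control (SD, n = 3 each). The P2 effect minus the E14.5 effect was -2.97 (limma adjusted p = 0.549), with a limma adjusted p between 0.0216 and 0.999 over the alternatives.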

How the results depend on the processing

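The direction of every median over the 32 genes was kept under each alternative for the genotype comparisons at E14.5 and P2, for P2 minus E18.5 in both genotypes and for E18.5 minus E14.5 in Htr3a-KO. Leaving out 1 array at a time, the median ranged between 0.63 and 1.73 for Htr3a-KO minus control at E14.5, between -0.19 and 0.33 at E18.5, between -2.21 and -0.61 at P2 and between -0.17 and 0.20 for the mean of the 3 ages. It ranged between -0.24 and 0.31 for E18.5 minus E14.5 in control, between -1.88 and -0.72 in Htr3a-KO, between 0.85 and 2.34 for P2 minus E18.5 in control and between 0.04 and 0.39 in Htr3a-KO. Without array 1 of E14.5 Htr3a-KO and array 1 of the P2 controls together, which was chosen after the data were seen, the medians were -0.61 for Htr3a-KO minus control at P2 and 0.85 for P2 minus E18.5 in control.

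Leaving out 1 array at a time, between 0 and 1 genes passed for Htr3a-KO minus control at P2, for its P2 effect minus its E14.5 effect and for P2 minus E18.5 in Htr3a-KO. Between 0 and 6 passed for E18.5 minus E14.5 in Htr3a-KO, between 2 and 20 for P2 minus E18.5 in control and between 1 and 21 for the mean of both genotypes. The counts stayed at 0 for Htr3a-KO minus control at E14.5, at E18.5 and over the 3 ages, for E18.5 minus E14.5 in control and for both genotype differences of the age steps. For E18.5 minus E14.5 in Htr3a-KO, 22 genes passed with array weights, 3 at an adjusted p under 0.10, 2 with only the arrays compared, and 1 with the lowest 50% left out, probe sets averaged per gene, quantile normalization, median centring, a trended prior or both arrays left out. For P2 minus E18.5 in control, 15 passed at an adjusted p under 0.10, 2 with both arrays left out and 2 with only the arrays compared. For P2 minus E18.5 in Htr3a-KO, 1 passed with the lowest 50% left out, quantile normalization, an adjusted p under 0.10, both arrays left out or only the arrays compared. Over the mean of both genotypes 13 passed at an adjusted p under 0.10. The cause was not tested. With the replicate number as a block, 1 gene passed for E18.5 minus E14.5 in Htr3a-KO, 1 for P2 minus E18.5 in Htr3a-KO and 5 for the mean of both genotypes, and no other count moved by over 1.5 times. Using only the arrays compared is the reported fit itself where all 6 groups enter.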

Other observations

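F13a1 and Cd163, further border macrophage genes, are given here because of their values, which were seen first. F13a1, which encodes the clotting factor chain made by these macrophages, read 7.59, 7.32 and 7.63 in E14.5 Htr3a-KO arrays, against 4.95, 5.44 and 6.36 in E14.5 controls. These were without overlap, which 4.98% of all genes tested showed in this direction. At P2 it read 5.18, 5.64 and 5.80 in Htr3a-KO, against 9.21, 8.11 and 6.36 in control, again without overlap, as were 5.79% of all genes. Of the 8 further border macrophage genes tested, 0 passed in limma between genotypes at E14.5 or P2. The medians of that list were 0.23 and -0.57. F13a1 was as high in array 3 as in array 1 of E14.5 Htr3a-KO, as Pf4 was. At E18.5 F13a1 read 6.20, 7.66 and 4.99 in Htr3a-KO, against 5.95, 5.16 and 6.19 in control. Its highest Htr3a-KO array at this age, array 2, was also the highest Htr3a-KO array for Mrc1 and Pf4. Cd163 lay under the filter level of 5.255 in 17 of 18 arrays, the exception being array 1 of the P2 controls, at 6.13.

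Il1b, which encodes an inflammatory cytokine and was likewise chosen after its values were seen, read 9.22, 8.25 and 6.48 in E14.5 Htr3a-KO arrays, against 6.26, 6.01 and 7.17 in E14.5 controls. At P2 it read 6.78, 6.79 and 6.11 in Htr3a-KO, against 9.49, 8.96 and 6.37 in control.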
